A study of Sus scrofa with 12 samples.

Results

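Endothelial cells form the inner wall of blood and lymph vessels, and the genes examined here are those that such cells use to hold on to each other, to sense growth factors, to set their identity and to control the passage of water, solutes and gases. The set was given as a list of 42 gene symbols, meant as a proxy for the capillary content of muscle, and its members were the rows of the gene count tables whose pig Ensembl identifier carries one of these symbols. A row was found for 34 of the 42 symbols, out of 25880 gene rows in all, of which 14857 carry a symbol. No row carried the symbols CLDN5, ICAM2, SELE, PODXL, SOX7, SOX17, TAL1 and VWF, which were not analysed here.

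Skeletal muscle fibres are fed by a dense capillary bed, and in mammals oxidative muscle, which is rich in the oxygen-binding protein myoglobin, usually has more capillaries per fibre than glycolytic muscle. Vascular endothelial growth factors act on endothelial cells through the receptors KDR, FLT1 and FLT4, angiopoietins act through TEK, and transcription factors of the ETS and SOX families keep the endothelial genes on. In RNA from whole muscle, fewer endothelial cells and less RNA of these genes per cell cannot be told apart.

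Longissimus dorsi (LD) muscle was taken from 12 male Iberian pigs, castrated and fattened in a free-range system on acorns and grass, and 1 RNA-seq library was made per pig. The High MB group held 6 pigs with a high breeding value for myoglobin (MB) content, from 0.159 to 0.206, and from 2.376 to 2.559 mg/g of MB in the muscle. The Low MB group held 6 pigs with breeding values from -0.248 to -0.149 and from 1.226 to 1.58 mg/g of MB. All were of the same breed, sex and rearing system, and each library came from a separate animal. The labels give no age per pig, and the study's methods state 1 approximate slaughter age and weight for the population.

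Gene counts per library ran from 38914271 to 91318334. Libraries with 59227608 counts or more are called deep here (High MB 4 and 6, Low MB 1, 5 and 6), and the other 7 libraries, with 40001432 or fewer, standard. Expression is given in CPM, a gene's counts relative to the size of its library after TMM scaling, and a log2 fold change (log2 FC) above 0 means a higher level in the High MB group. Following the study's thresholds, a gene was called when its p, adjusted by the Benjamini-Hochberg method, was under 0.10 and its absolute log2 FC over 0.58. High MB 2 stood apart in having the lowest mean level of 5 muscle fibre genes and a TMM factor of 1.21 (0.891 to 1.03 in the others), and the main counts are therefore also given without it.

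The counts of the 34 genes together made up 0.0521% to 0.0720% of all gene counts in the High MB pigs (median 0.0634%). In the Low MB pigs they made up 0.0348% to 0.0608% (median 0.0493%). The groups overlapped, and Low MB 1 was the lowest pig. The genes were counted between 1 and 8242 times per pig, and 27 of the 34 had at least 100 counts in every pig. Of the markers that define endothelium, PECAM1, CDH5, KDR, TEK and TIE1 were measured in every pig, so that endothelial RNA was present in each library.

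Levels per kilobase of the longest RefSeq transcript allow genes to be ranked against each other. On that scale RAMP2 was the highest at 25.1 CPM per kb, averaged over the 12 pigs, followed by AQP1 at 22.0, PECAM1 at 17.7 and EGFL7 at 15.2. CLEC14A, ENG and CDH5 lay between 8.36 and 9.45 CPM per kb. At the other end, FLT4 had 0.0771 CPM per kb, LYL1 0.194, SELP 0.195 and DLL4 0.605. The place of RAMP2 rests on a transcript of 742 bases and on the High MB pigs, at 28.9 CPM per kb against 22.7 for AQP1. In the Low MB pigs RAMP2 and AQP1 were level, at 21.2 and 21.3 CPM per kb. The transcript lengths in the annotation are long for TIE1 (10371 bases) and MMRN2 (11979 bases).

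In the comparison of the High and Low MB groups, 33 of the 34 endothelial genes had a log2 FC above 0, while 46.9% of the 13373 genes tested did. Their median log2 FC was 0.37 (1.29-fold) and the median of all genes tested was -0.02. The members covaried from pig to pig within the groups (median correlation 0.536), so their signs are not separate observations. The mean levels of the 34 genes in single pigs overlapped between the groups. The nitric oxide synthase of endothelium NOS3, the receptor TIE1, the transcription factors ERG and FLI1 and the surface protein ECSCR were among those with the smallest p, whereas the receptor ENG and the water channel AQP1 had nearly the same level in both groups. None of the 34 was called by edgeR's quasi-likelihood test after adjustment over all genes, with adjusted p between 0.563 and 0.970, and 0% of all genes tested were called.

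Without adjustment, 8 of the 34 had an edgeR p under 0.05, all of them higher in the High MB group, beside 5.33% of all genes tested that were higher and 3.13% that were lower at that p. Another 6 had a p between 0.05 and 0.10. DESeq2 also called 0 of the 34, beside 0.151% of its genes, with a lowest adjusted p of 0.192 (NOS3). It gave 11 members with an unadjusted p under 0.05, all higher, beside 5.18% of its genes. Exact two-sided permutation tests of each gene over the 924 ways of dividing 12 pigs into 6 and 6 gave 8 of 34 p-values under 0.05, beside 4.78% of all genes higher and 4.31% lower. The smallest was 0.0130, while the design allows 0.00216. In no member was every High MB pig above every Low MB pig, which held for 0.232% of all genes. A log2 FC over 0.37 was found in 13.7% of all genes, and 5 members exceeded 0.58, as did 6.77% of all genes.

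**Figure D1:**
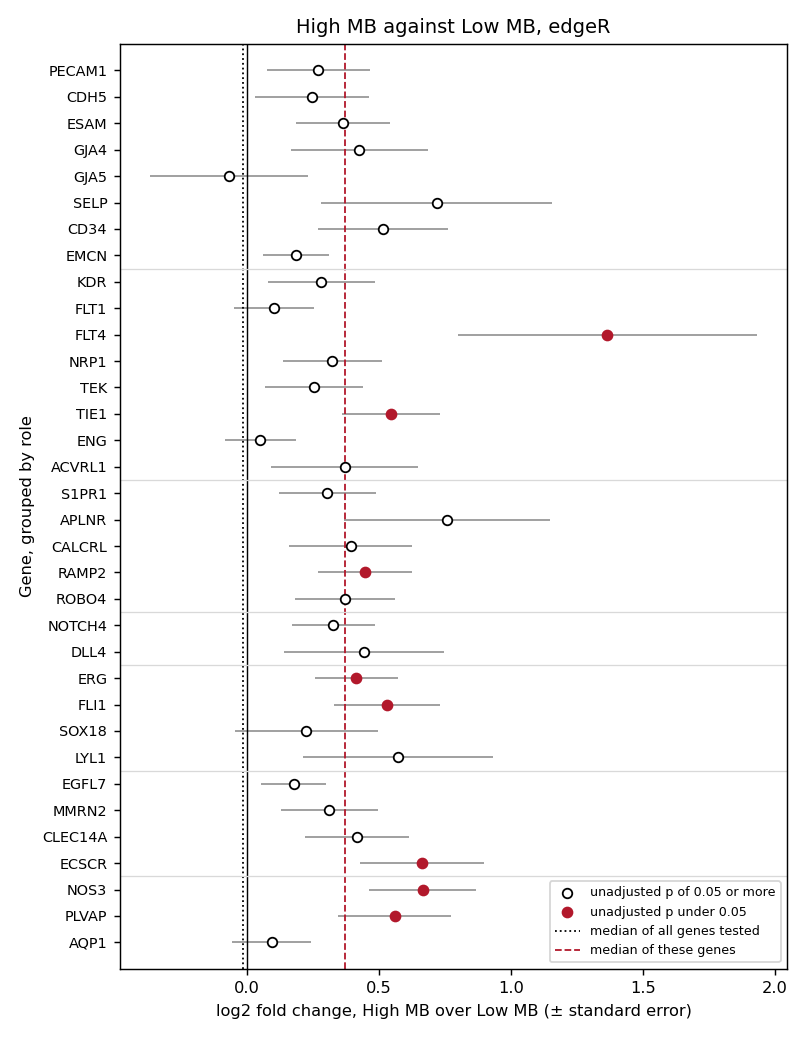
Log2 FC of the High MB over the Low MB group (horizontal axis, points, with bars of 1 standard error from edgeR, 6 pigs per group) for the 34 endothelial genes, grouped by role. The red points are the 8 genes with an unadjusted p under 0.05, the red dashed line is the median of these genes at 0.37 and the black dotted line the median of all genes tested at -0.02. GJA5 at -0.07 is the only point left of 0.

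The pigs did not contribute evenly. The lowest of the 12 pigs was a Low MB pig in 34 of 34 members (50.1% of all genes), and it was Low MB 1 in 21 of them (12% of all genes). The highest pig was a High MB pig in 28 members (48% of all genes), most often High MB 5 in 11 (6.86% of all genes), then High MB 2 in 8 (20.1%) and High MB 6 in 8 (5.79%). Averaged over the 34 genes, the log2 level relative to the mean of the 12 pigs lay between -0.01 (High MB 1) and 0.44 (High MB 5) in the High MB group and between -0.66 (Low MB 1) and 0.27 (Low MB 5) in the Low MB group. Low MB 5 was above the 12-pig mean in 31 of the 34 genes and so resembled the High MB pigs 5 (33 genes) and 6 (32 genes). High MB 1 was above it in only 16.

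**Figure D2:**
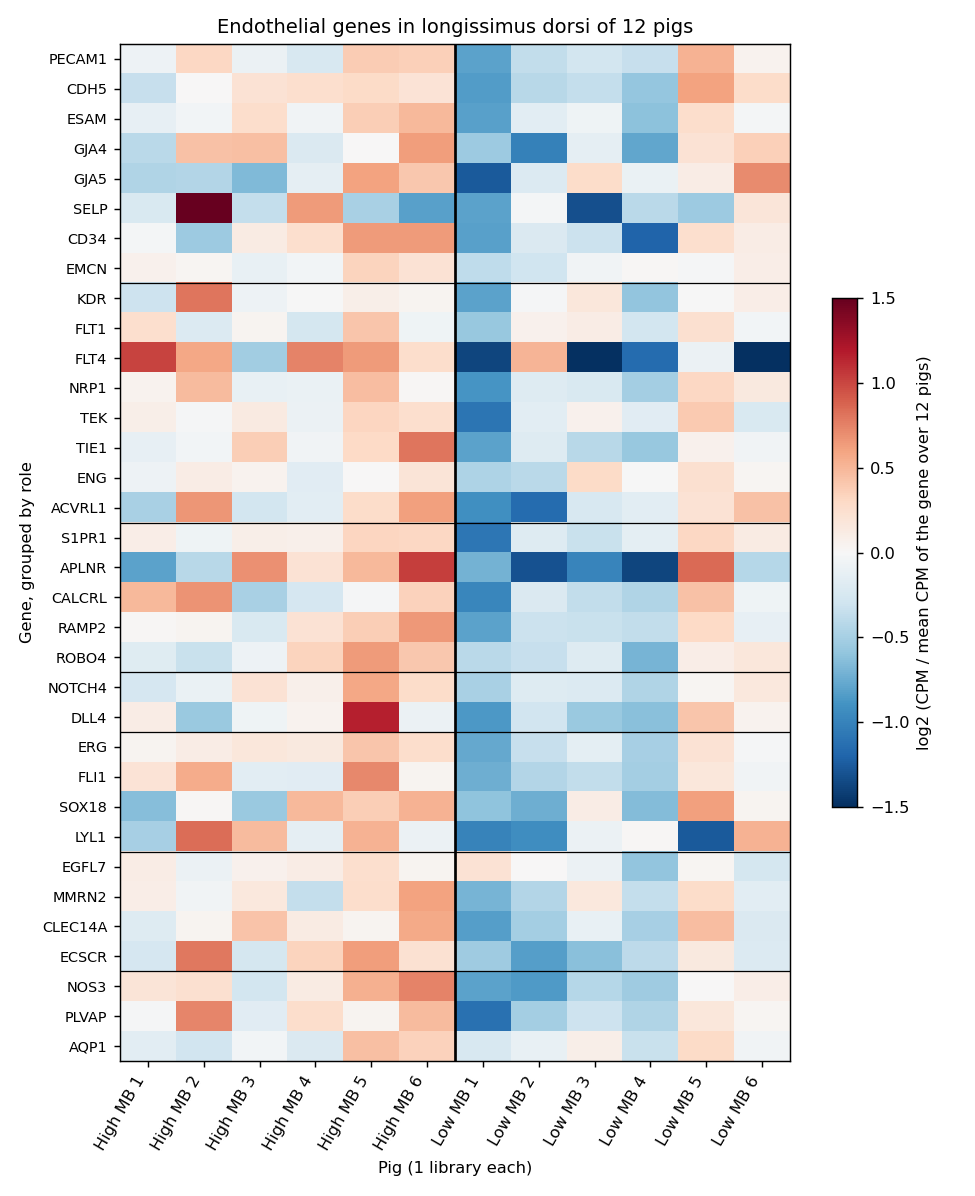
Level of each of the 34 endothelial genes (rows, grouped by role) in each of the 12 pigs (columns), as log2 of its CPM over the mean CPM of the gene, with red above and blue below that mean and the strongest colours also standing for values beyond the scale. The column of Low MB 1 is blue in most rows, and those of High MB 5, High MB 6 and Low MB 5 are red in most rows.

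Single libraries moved the count of 8 genes with an unadjusted p under 0.05. Without Low MB 5 it was 21 of 34 (6.13% of all genes were higher at that p) and without High MB 2 it was 14 (5.8% of all genes), and with any other pig left out it was between 6 and 12. With the depth class as a covariate it was 13 (6.03% of all genes). Leaving out 1 pig moved the log2 FC of 16 of the 34 members by over 1.5 times. The median log2 FC stayed between 0.28 (without Low MB 1) and 0.46 (without Low MB 5). Without High MB 2 alone the median was 0.38, with 34 of 34 members above 0 (49.1% of all genes). Without both High MB 2 and Low MB 4, 34 of 34 members were above 0 (50% of all genes), 7 had a p under 0.05 (5.06% of all genes) and the median was 0.34. The labels and the study give no reason to leave out Low MB 4, whose mean log2 level of the 34 genes was -0.40.

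Within the 5 deep libraries (2 High MB, 3 Low MB) 33 members had a log2 FC above 0 (52.1% of all genes), with a median of 0.31. Within the 7 standard libraries (4 High MB, 3 Low MB) 33 did (50.6% of all genes), with a median of 0.50. The medians of all genes were 0.01 and 0.00. Both values were above 0 in 32 members, as in 32.5% of all genes. The exceptions were FLT1, at -0.04 in the deep libraries, and GJA5, at -0.14 in the standard libraries. By edgeR's test 0 members had an unadjusted p under 0.05 in the deep libraries (2.17% of all genes were higher at that p) and 13 in the standard libraries (4.86% of all genes).

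**Figure D3:**
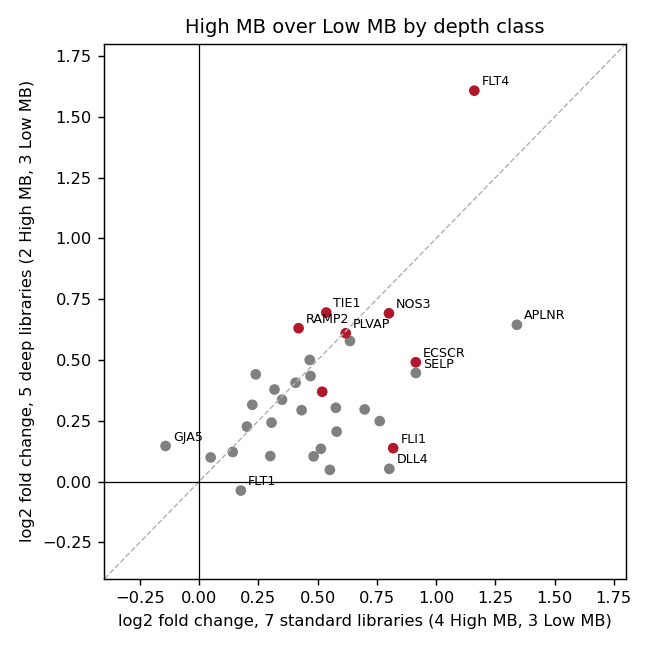
Log2 FC of the 34 genes within the 7 standard libraries (horizontal axis) against that within the 5 deep libraries (vertical axis), with the 8 genes of unadjusted p under 0.05 in red and equal values on the dashed line. Most points are above 0 on both axes, with FLT1 and GJA5 as exceptions, and DLL4, APLNR and FLI1 lie far below the line.

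Permeability and vessel tone gave the member with the smallest p. NOS3 (ENSSSCG00000016450, chromosome 18 of Sscrofa11.1, 6209218 to 6228912) makes the nitric oxide that relaxes vessels. It ran from 7.14 to 14.5 CPM in the High MB pigs, with a median of 10.04, and from 4.80 to 9.26 CPM in the Low MB pigs, with a median of 6.19. Thus 5 of the 6 High MB pigs were above every Low MB pig and only High MB 3 lay among them. The log2 FC of NOS3 was 0.67 (standard error 0.20, edgeR p = 0.0053, adjusted p = 0.563), the exact permutation test gave p = 0.0130, and the value was 0.69 in the deep libraries alone and 0.80 among the standard ones.

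PLVAP (ENSSSCG00000037025, chromosome 2, 60324565 to 60344450), the protein of the diaphragms that span caveolae and fenestrae, had a median of 7.87 CPM (6.31 to 11.7) in the High MB pigs and of 5.43 CPM (3.25 to 7.99) in the Low MB pigs. High MB 2 was the highest pig and Low MB 1 the lowest. Its log2 FC was 0.56 (standard error 0.21, edgeR p = 0.0197, exact permutation p = 0.0260). AQP1 (ENSSSCG00000033190, chromosome 18, 42063482 to 42076741), a water channel of endothelium that red cells also carry, had the most counts of all 34. It ran from 57.1 to 95.1 CPM (median 65.1) in the High MB pigs and from 55.1 to 84.8 CPM (median 65.7) in the Low MB pigs, so the ranges nearly coincided. The log2 FC of AQP1 was 0.09 with a standard error of 0.15.

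**Figure D4:**
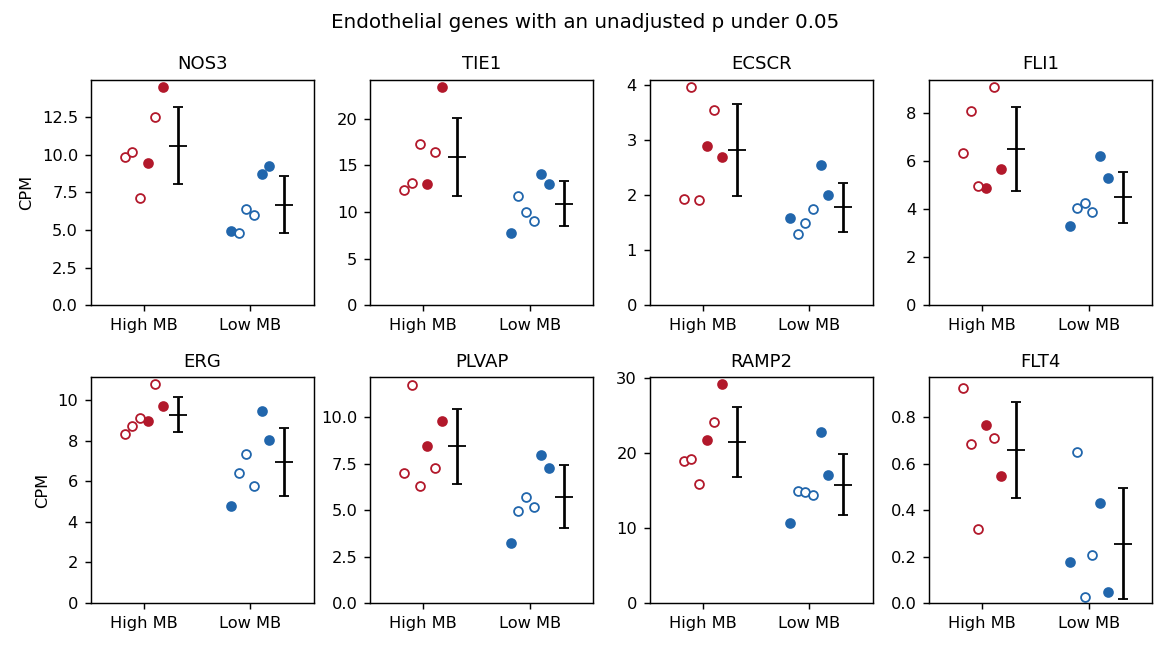
CPM in each pig (points, filled for deep libraries and open for standard ones) of the 8 endothelial genes with an unadjusted p under 0.05, with the mean and SD of the 6 pigs of each group beside them. In all 8 the High MB mean is higher, from 1.33-fold in ERG to 2.58-fold in FLT4 by edgeR, and in all 8 the groups overlap.

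Of the growth factor receptors, 8 of 8 had a row and a log2 FC above 0 (median 0.30), beside 46.9% of all genes, and 2 had an unadjusted p under 0.05, beside 5.33% of all genes higher at that p. TIE1 (ENSSSCG00000003950, chromosome 6, 167919662 to 167947253), a receptor that works with the angiopoietin receptor TEK, had a median of 14.7 CPM (12.3 to 23.4) in the High MB pigs and of 10.9 CPM (7.70 to 14.0) in the Low MB pigs. Its 3 highest pigs were High MB 3, 5 and 6, and 4 Low MB pigs lay below every High MB pig. The log2 FC was 0.55 (standard error 0.18, edgeR p = 0.0100, exact permutation p = 0.0238), against 0.70 for the deep libraries alone and 0.54 for the standard ones. TEK itself had 17.3 ± 1.87 CPM in the High MB group and 14.5 ± 4.39 CPM in the Low MB group (SD, n = 6 each), a log2 FC of 0.25 that was 0.12 without Low MB 1 and 0.39 without Low MB 5.

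FLT4 (ENSSSCG00000014007, chromosome 2, 78076008 to 78115137), which in the adult is mainly the receptor of lymphatic endothelium, had the largest log2 FC at 1.37, but it was counted only 1 to 51 times per pig. It ran from 0.318 to 0.926 CPM (median 0.697) in the High MB pigs and from 0.0257 to 0.650 CPM (median 0.191) in the Low MB pigs. Low MB 3 held 1 count, and Low MB 2 and 5 lay within the range of the High MB pigs. The standard error was 0.57 (edgeR p = 0.0298, exact permutation p = 0.0173), and without High MB 1 the edgeR p was 0.0600.

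ENG (ENSSSCG00000005625, chromosome 1, 268309379 to 268343861), a co-receptor for bone morphogenetic proteins and the most counted of these receptors, ran from 30.3 to 38.7 CPM (median 34.7) in the High MB pigs and from 24.7 to 41.4 CPM (median 34.3) in the Low MB pigs. The Low MB range enclosed the High MB range. The log2 FC of ENG was 0.05 (interval of 2 standard errors from -0.22 to 0.32), and that of its partner ACVRL1 was 0.37 (from -0.19 to 0.93). Among the receptors for vascular endothelial growth factors, KDR had 16.9 ± 5.09 CPM and 13.9 ± 3.50 CPM (SD, n = 6 each), FLT1 26.8 ± 5.01 and 25.0 ± 4.78 CPM, and the co-receptor NRP1 24.5 ± 4.69 and 19.6 ± 5.68 CPM in the High and Low MB groups. Their log2 FC were 0.28, 0.10 and 0.32, none beyond the spread between pigs by edgeR's test. Leaving out 1 pig gave 0.12 for KDR (without High MB 2), 0.02 for FLT1 (without High MB 5) and 0.22 for NRP1 (without Low MB 1). NRP1 was at 0.05 among the deep libraries and 0.55 among the standard ones. KDR was at 26.9 CPM in High MB 2 and between 12.4 and 16.3 CPM in the other 5 High MB pigs.

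The G protein-coupled and guidance receptors had 5 of 5 values above 0 (median 0.39), beside 46.9% of all genes. RAMP2 (ENSSSCG00000017389, chromosome 12, 20092204 to 20094426) turns the receptor CALCRL into a receptor for adrenomedullin, a peptide that widens vessels. RAMP2 had a median of 20.4 CPM (15.9 to 29.2) in the High MB pigs and of 14.8 CPM (10.6 to 22.8) in the Low MB pigs. All but Low MB 5 and Low MB 6 lay below every High MB pig. Its log2 FC was 0.45 (standard error 0.18, edgeR p = 0.0250, exact permutation p = 0.0411), and without High MB 6 the edgeR p was 0.0728. CALCRL had 20.2 ± 6.12 CPM in the High MB group and 15.3 ± 5.02 CPM in the Low MB group (SD, n = 6 each), a log2 FC of 0.39.

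The sphingosine 1-phosphate receptor S1PR1, which tightens the endothelial barrier, had a log2 FC of 0.31, which was 0.17 without Low MB 1, and the guidance receptor ROBO4 one of 0.37. The apelin receptor APLNR had 0.76 with a standard error of 0.39 (edgeR p = 0.0717, exact permutation p = 0.0844), from 4.63 to 16.7 CPM in the High MB pigs and from 3.11 to 14.6 CPM in the Low MB pigs. It was one of the most variable members, with a coefficient of variation of 58.5% over the 12 pigs. Low MB 5, at the top of its group, exceeded 5 of the High MB pigs, and the log2 FC was 1.25 without it and 0.56 without High MB 6. It was 0.64 among the deep libraries and 1.34 among the standard ones.

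NOTCH4 (ENSSSCG00000001440, chromosome 7, 24231293 to 24256281), the Notch receptor of endothelium, had a median of 12.8 CPM (9.70 to 17.3) in the High MB pigs and of 10.1 CPM (8.30 to 13.0) in the Low MB pigs. The groups overlapped, with 3 High MB pigs above every Low MB pig. The log2 FC was 0.33 (standard error 0.16, edgeR p = 0.0553, exact permutation p = 0.0736). Its ligand DLL4 had a log2 FC of 0.44, which was 0.05 within the deep libraries, 0.80 within the standard ones and 0.15 without High MB 5, the pig with 4.65 CPM against a High MB median of 2.07 CPM.

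All 4 transcription factors with a row had a log2 FC above 0 (median 0.47), beside 46.9% of all genes, and both ETS factors had an unadjusted p under 0.05, beside 5.33% of all genes higher at that p. ERG (ENSSSCG00000022318, chromosome 13, 201999237 to 202302572), which keeps junction genes such as CDH5 on, was narrow in the High MB pigs, from 8.34 to 10.8 CPM (median 9.05), and wider in the Low MB pigs, from 4.79 to 9.47 CPM (median 6.87). Of the Low MB pigs only Low MB 5 reached the High MB range. The log2 FC of ERG was 0.41 (standard error 0.16, edgeR p = 0.0191, exact permutation p = 0.0152).

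FLI1 (ENSSSCG00000015237, chromosome 9, 55612905 to 55749784), the close relative of ERG, had a median of 5.99 CPM (4.87 to 9.07) in the High MB pigs and of 4.14 CPM (3.29 to 6.19) in the Low MB pigs. High MB 5 and 2 were the highest and Low MB 1 the lowest. Its log2 FC was 0.53 (standard error 0.20, edgeR p = 0.0184, exact permutation p = 0.0303), but 0.14 among the deep libraries and 0.82 among the standard ones, and without High MB 5 the edgeR p was 0.0547. SOX18, a factor of vessel and lymphatic development, had 0.23 with a standard error of 0.27, and it was 0.13 without High MB 6 and 0.43 without Low MB 5. LYL1, a blood and vessel factor counted 16 to 68 times per pig, had 0.57 with a standard error of 0.36.

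Among the matrix, secreted and surface proteins, 4 of the 5 symbols had a row and all 4 were above 0 (median 0.36), beside 46.9% of all genes. ECSCR (ENSSSCG00000014351, chromosome 2, 141343818 to 141352618), a surface protein that tunes endothelial migration, had a median of 2.80 CPM (1.91 to 3.97) in the High MB pigs and of 1.67 CPM (1.30 to 2.55) in the Low MB pigs. In 4 High MB pigs it was above every Low MB pig, and High MB 1 and 3 lay among the Low MB pigs. The log2 FC was 0.66 (standard error 0.24, edgeR p = 0.0133, exact permutation p = 0.0195), from 52 to 251 counts per pig.

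EGFL7 (ENSSSCG00000005828), a protein that endothelial cells secrete into their matrix, was the most counted of this role. It ran from 48.6 to 61.6 CPM (median 54.8) in the High MB pigs and from 34.2 to 60.2 CPM (median 50.3) in the Low MB pigs. Low MB 1, the lowest pig for most members, was the highest Low MB pig here. The log2 FC of EGFL7 was 0.18 with a standard error of 0.12, and 0.11 without Low MB 4. CLEC14A, a lectin-like protein of the endothelial surface, had a log2 FC of 0.42 (edgeR p = 0.0513, exact permutation p = 0.0649), and the matrix protein MMRN2 that binds it one of 0.31, which was 0.20 without High MB 6.

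The junction and adhesion genes had 7 of 8 values above 0 (median 0.32), beside 46.9% of all genes, and none with an unadjusted p under 0.05. PECAM1 (ENSSSCG00000017277, chromosome 12, 14667643 to 14723296), the classic marker of endothelial cell contacts, ran from 52.6 to 81.0 CPM (median 68.3) in the High MB pigs and from 35.7 to 89.5 CPM (median 50.3) in the Low MB pigs. Low MB 5 was the highest of all 12 pigs, while 4 Low MB pigs lay below every High MB pig. The log2 FC of PECAM1 was 0.27 (standard error 0.19, edgeR p = 0.185, exact permutation p = 0.186), and it lay between 0.17 (without Low MB 1) and 0.45 (without Low MB 5) with 1 pig left out.

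The cadherin of endothelial junctions, CDH5, likewise had its highest value in Low MB 5, at 49.2 CPM above every High MB pig. Its log2 FC was 0.25, or 0.14 without Low MB 1 and 0.45 without Low MB 5. Among the deep libraries CDH5 was at 0.13 and PECAM1 at 0.10, and among the standard ones they were at 0.51 and 0.48. ESAM, an adhesion molecule of tight junctions, had 0.36 (edgeR p = 0.0601, exact permutation p = 0.0628), and CD34, a sialomucin of capillary endothelium and of progenitor cells, had 0.52 (edgeR p = 0.0555, exact permutation p = 0.0909). EMCN, a sialomucin of capillaries and veins, was the least variable member, with a coefficient of variation of 13.4% and a log2 FC of 0.19. SELP, the selectin that catches leukocytes and that platelets also carry, was counted 8 to 74 times per pig and had 0.72 with a standard error of 0.44, which became 0.27 without High MB 2.

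The connexins of arterial endothelium differed from each other in value. GJA4 had 4.35 ± 1.20 CPM in the High MB group and 3.23 ± 1.21 CPM in the Low MB group (SD, n = 6 each), a log2 FC of 0.43. GJA5, the one member below 0, had 3.91 ± 1.45 and 4.10 ± 1.62 CPM, a log2 FC of -0.07 with an interval of 2 standard errors from -0.66 to 0.53. Whether GJA4 and GJA5 differ in response was not tested.

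The members covaried from pig to pig within the groups. With the group means removed, the median Pearson correlation of log2 CPM over the 561 pairs of members was 0.536 across the 12 pigs, and 87.5% of the pairs were above 0. Over the 89411878 pairs of all genes tested, the median was -0.0005 and 49.9% were above 0. Spearman's rho gave a median of 0.497. The median was 0.344 within the High MB pigs and 0.708 within the Low MB pigs. These values describe genes measured in the same 12 libraries, which share depth and scaling.

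ERG was the most like the others, with a median correlation of 0.728 with the other 33 members, followed by PECAM1 (0.709), ESAM (0.6998) and RAMP2 (0.685). The closest pairs were NRP1 with FLI1 (0.927) and ESAM with ERG (0.921). SELP (-0.0954), EGFL7 (-0.0583) and FLT4 (-0.0519) had medians below 0, and of these SELP and FLT4 were among the least counted.

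The sequences upstream of the members were read for short motifs of the ETS family, to which ERG and FLI1 belong, and of the GATA family, which has no member in the list. Motifs of the SOX and LYL1 families were not searched. Over the 250 bases before the RefSeq start of the gene, both strands were searched for CCGGAA and AGGAAG, core sites bound by ETS factors such as ERG and FLI1, and for AGATAA, a core site bound by GATA factors. A sequence was read for 32 of the 34 members, since APLNR and EGFL7 lie on unplaced scaffolds. AGGAAG stood in 11 of the 32 (34.4%) and in 25.0% of the 19531 upstream sequences of all protein-coding genes. CCGGAA stood in 0 of the 32 and in 13.6% of all, and the 2 motifs together in 34.4% and 35.2%. AGATAA stood in 1 of the 32 (3.12%) and in 8.08% of all. No matches overlapped.

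Of the 8 members with an unadjusted p under 0.05, 4 held a match and NOS3, TIE1, ERG and FLT4 held none of these letters in the window. The 4 are shown from 5′ to 3′ on the strand of the gene, in Sscrofa11.1 as given by RefSeq, with the match in capitals, since they are the members that both passed that p and held a match. RAMP2 lies at chr12:20094427-20094676 on the minus strand, with AGGAAG at -81 and, as CTTCCT on the other strand, at -67 from the gene start. FLI1 lies at chr9:55612655-55612904 on the plus strand, with AGGAAG at -67. ECSCR lies at chr2:141352619-141352868 on the minus strand, with AGGAAG at -29. PLVAP lies at chr2:60324315-60324564 on the plus strand, with AGATAA, read as TTATCT, at -34. A match describes the letters and shows no binding.
RAMP2: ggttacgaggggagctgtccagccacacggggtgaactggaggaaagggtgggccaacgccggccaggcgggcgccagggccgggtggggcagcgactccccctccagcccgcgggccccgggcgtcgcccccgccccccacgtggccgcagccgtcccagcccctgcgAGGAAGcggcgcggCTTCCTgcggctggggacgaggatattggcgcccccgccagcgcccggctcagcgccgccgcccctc
FLI1: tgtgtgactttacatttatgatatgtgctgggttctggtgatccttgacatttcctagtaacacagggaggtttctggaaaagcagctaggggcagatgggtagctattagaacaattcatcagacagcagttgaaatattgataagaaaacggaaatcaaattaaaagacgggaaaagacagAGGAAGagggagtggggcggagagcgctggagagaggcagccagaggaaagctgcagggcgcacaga
ECSCR: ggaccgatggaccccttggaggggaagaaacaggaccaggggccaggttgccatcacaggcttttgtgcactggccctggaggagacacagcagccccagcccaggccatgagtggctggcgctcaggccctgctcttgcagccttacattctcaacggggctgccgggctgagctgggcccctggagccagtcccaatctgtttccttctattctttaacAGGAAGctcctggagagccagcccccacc
PLVAP: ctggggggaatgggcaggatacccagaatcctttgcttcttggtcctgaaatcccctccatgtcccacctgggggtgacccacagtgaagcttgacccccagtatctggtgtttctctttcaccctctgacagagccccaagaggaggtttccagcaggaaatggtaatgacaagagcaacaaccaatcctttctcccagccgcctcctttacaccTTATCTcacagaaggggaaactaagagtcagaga

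The ligands and signalling partners of these receptors, were a list of 28 symbols with 24 rows. Of the 21 that passed the filter on low counts, 18 had a log2 FC above 0 (46.9% of all genes) with a median of 0.19. An unadjusted p under 0.05 was found in 2 (5.33% of all genes were higher at that p), the sphingosine 1-phosphate exporter SPNS2 (log2 FC 0.44) and the matrix proteoglycan VCAN (0.64). Both were higher in the High MB group, with exact permutation p of 0.0823 and 0.0844. By the exact permutation test NRP2 (log2 FC 0.52, p = 0.0476) and HEY1 (0.43, p = 0.0498) were under 0.05, as were 4.78% of all genes in that direction. Their edgeR p were 0.0520 and 0.0656. ANGPT1, SLIT3 and VEGFA, given next, were chosen after their values were seen. The angiopoietin ANGPT1, the ligand of TEK, had a log2 FC of 0.98 (edgeR p = 0.0551, exact permutation p = 0.193) and SLIT3, a ligand of ROBO receptors, one of 0.67 (edgeR p = 0.0628, exact permutation p = 0.132). VEGFA, the main ligand of KDR, had 115 ± 27.6 CPM in the High MB group and 117 ± 77.3 CPM in the Low MB group (SD, n = 6 each), a log2 FC of -0.03. GDF2 and BMP10, the ligands of ENG and ACVRL1, which other organs make, had 0 counts in 12 of 12 pigs, where 3 counts would be 0.0771 CPM in the shallowest library.

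A further list of 32 endothelial genes outside the set had 31 rows, and all 31 were tested. A log2 FC above 0 was found in 29 of them (46.9% of all genes), with a median of 0.24, and 6 had an unadjusted p under 0.05, all higher (5.33% of all genes). These were GPIHBP1, which holds lipoprotein lipase on capillaries (log2 FC 0.65, edgeR p = 0.00204, exact permutation p = 0.00433), the transcription regulators ETS1 (0.41), ELK3 (0.45) and LMO2 (0.51), the exchange factor ARHGEF15 (0.41) and RGCC (0.44). By the exact permutation test ARHGEF15 (p = 0.0541) and RGCC (p = 0.0974) did not pass 0.05. In the mean log2 level of this list relative to the 12 pigs, Low MB 1 was the lowest (-0.57) and Low MB 5 the highest (0.31). GPIHBP1 had been selected by the study in these same pigs. All gene lists come from the same 12 libraries and were chosen with earlier results of these data known. None of them is independent evidence. The 5 lymphatic endothelium markers were all above 0 (median 0.60), with sums of 9.59 to 23.2 CPM in the High MB pigs and 6.33 to 12.1 CPM in the Low MB pigs, and the chemokine CCL21 had 1.24 (edgeR p = 0.00607, exact permutation p = 0.0411). The mean log2 level of these markers was below the 12-pig mean in High MB 3 (-0.41) and High MB 6 (-0.22). It was above that mean in the other High MB pigs and in Low MB 5 (0.17). LYVE1 had an exact permutation p of 0.219.

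Markers of other cell types were compared in the same fit, where at an unadjusted edgeR p under 0.05 the share of all genes was 5.33% higher and 3.13% lower. Of 7 macrophage markers with a row, 7 had a log2 FC above 0 (median 0.78), and 6 had an unadjusted edgeR p under 0.05, the receptors CSF1R (0.60), CD163 (1.09) and MRC1 (0.98) and the complement genes C1QA (0.93), C1QB (0.78) and C1QC (0.77). By the exact permutation test CD163 (p = 0.0736) and MRC1 (p = 0.0758) did not pass 0.05, and the other 4 had p from 0.00649 to 0.0303. Their summed level ran from 61.4 to 127 CPM in the High MB pigs and from 29.4 to 71.2 CPM in the Low MB pigs. Of 12 pericyte and smooth muscle markers, 11 were above 0 (median 0.33), and only the pericyte proteoglycan CSPG4 had an unadjusted p under 0.05 (log2 FC 0.74, exact permutation p = 0.0195). Their sum ran from 311 to 1014 CPM and from 238 to 556 CPM, with High MB 6 highest. The mean log2 level of this list was 0.24 higher in the High MB group, and 0.06 higher without High MB 6. High MB 6 was also the second highest pig in the mean level of the endothelial genes.

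The red cell markers HBB (log2 FC 0.78, exact permutation p = 0.0173) and ALAS2 (0.71, exact permutation p = 0.0216) were higher at an unadjusted p under 0.05. They came with a summed level of the 5 markers with a row from 67.2 to 147 CPM in the High MB pigs and from 38.5 to 85.2 CPM in the Low MB pigs. Platelet markers, which matter for SELP, summed to 0.186 to 0.925 CPM in the High MB pigs and 0.0881 to 0.636 CPM in the Low MB pigs, TREML1 was at 0 in every pig, and none of the 3 with a row passed the filter. T and B cell markers summed to 1.75 to 3.77 CPM and 1.26 to 3.09 CPM, with 3 of 4 tested above 0 (median 0.25). The 5 muscle fibre markers with a row were all below 0 (median -0.17), and the calcium pump ATP2A1 of fast fibres had a log2 FC of -0.44 (edgeR p = 0.0440, exact permutation p = 0.0108). Their sum ran from 39273 to 96368 CPM in the High MB pigs and from 71872 to 127975 CPM in the Low MB pigs. The lowest pig was High MB 2, and the mean log2 level of the list differed by -0.22 between the groups with it and by -0.04 without it. In the edgeR fit no gene of these lists was called after adjustment. The part of these cell types in the values of the endothelial genes was not tested.

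**Figure D5:**
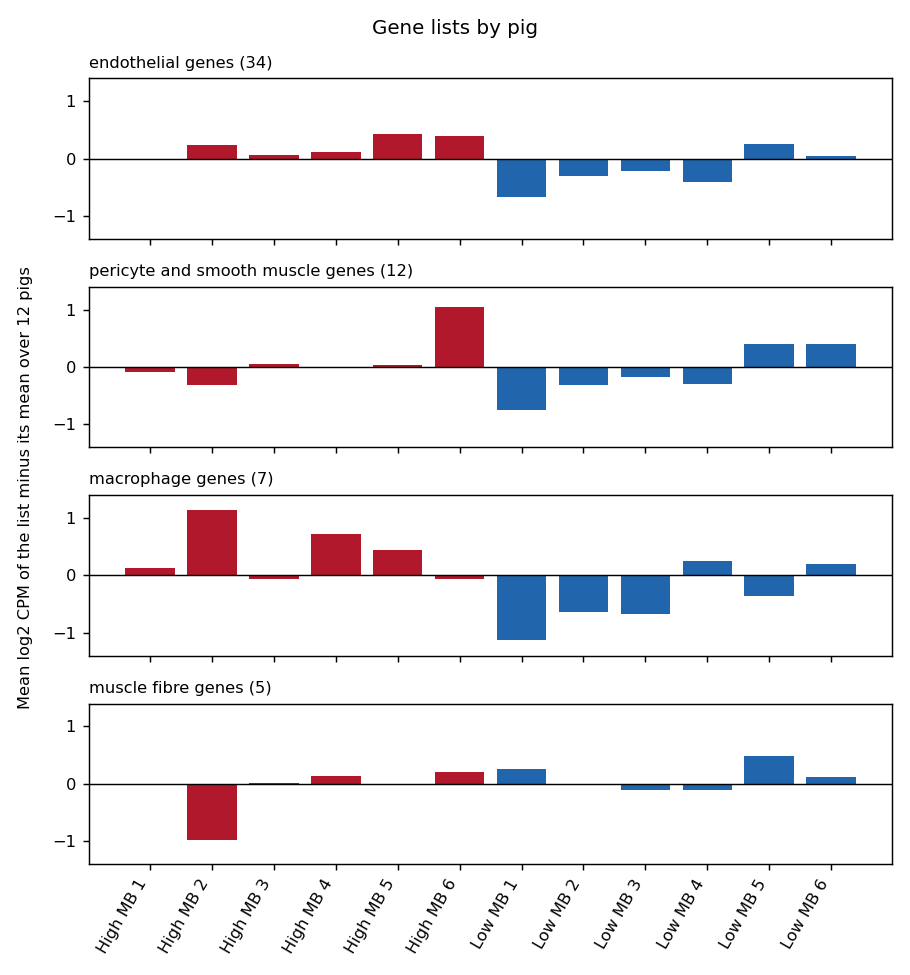
Mean log2 CPM of 4 gene lists in each pig relative to the mean of the 12 pigs (vertical axis), with High MB pigs in red and Low MB pigs in blue. Low MB 1 is the lowest pig in the endothelial (-0.66), pericyte and smooth muscle (-0.74) and macrophage (-1.12) lists, and High MB 2 is the highest in macrophage (1.15) and the lowest in muscle fibre genes (-0.97).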

How the data were processed

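RNA of LD muscle was sequenced from 12 pigs. The authors trimmed paired reads with Trim Galore, checked them with FastQC, aligned them with HISAT2 to the genome Sscrofa11.1 and deposited raw HTSeq counts per gene, without normalization. How strand and overlaps were handled in counting is not given in the sources used here, so overlapping genes cannot be told apart. The 5 summary lines of each table stayed out of library sizes, and the transcript tables were not used. Gene counts summed to between 38914271 and 91318334 per pig. A floor of 3 counts and all counting limits cover counting error only.

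Symbols were matched by Ensembl gene ID, and positions are those of RefSeq's annotation of Sscrofa11.1. Counts were tested with edgeR 4.0.16 in R 4.3.3 (TMM, filterByExpr by group, glmQLFit and glmQLFTest) over all genes, and with DESeq2 1.42.0 as an alternative. Standard errors were derived from the test statistic. Exact permutation tests used log2 CPM with a prior count of 2. Scripts were tested on simulated data. Alternatives were RLE and upper-quartile size factors, other filters on low counts, removal of the 10 highest genes, the depth class as a covariate or as a split, the individual number as a block, and each pig left out.

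The members and the gene lists were chosen with earlier results of these data known. Values of every pig are summarised for members with an unadjusted p under 0.05, members whose groups do not overlap and the most counted member of each role. Genes of other lists are named at an unadjusted p under 0.05 by edgeR or by the exact permutation test, or where a result turns on them. ANGPT1, SLIT3 and VEGFA were chosen after their values were seen.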

Additional observations from a re-analysis of the deposited data

Results flagged for a closer look

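Among the 34 genes in each of the 2 groups (68 sets of 6 pigs), 1 sample lay farther from the others than Dixon's limit for 6 samples allows (gap over range 0.646), and chance alone would give about 3.4. It was KDR in High MB 2, at 26.9 CPM, with the other High MB pigs between 12.4 and 16.3 CPM. Without High MB 2 the log2 FC of KDR was 0.12.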

How the results depend on the processing

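No alternative called any of the 34 genes after adjustment, and no alternative gave a member lower at an unadjusted p under 0.05. Over all genes, edgeR called 0, DESeq2 called 29 and edgeR on the deep libraries alone called 1. The count of 8 members with an unadjusted p under 0.05 became 13 with the depth class as a covariate, 13 in the standard libraries, 0 in the deep libraries, and between 6 and 21 with each pig left out. With the individual number as a replicate block it was 16, beside 5.01% of all genes higher at that p, and the median log2 FC was 0.39. The labels number the pigs within each group and give no pairing. Pigs of the same number had correlations of their deviations from the group means between -0.212 and 0.144, with 1 of 6 over 0.1. Of the 6 High MB pigs, 0 correlated best with the Low MB pig of its own number. Whether pigs of the same number share a factor in part of the genes was not tested. Other size factors, other filters, removal of the 10 highest genes and DESeq2 kept the count within 1.5 times.

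Of the log2 FC of single members, 770 values under alternatives kept their sign and 10 changed it, and none became a call. Values that crossed 0.58 alone were not counted as changes. The 10 changes were in members whose value was near 0. GJA5 was 0.15 in the deep libraries and 0.000176 without High MB 2 and Low MB 4, and with each pig left out it lay between -0.23 and 0.12. FLT1 was -0.037 in the deep libraries. AQP1 lay between -0.00244 (without High MB 5) and 0.17, and ENG between -0.022 (without Low MB 1) and 0.13 with each pig left out, with -0.00380 without Low MB 2. The cause of these changes was not tested. Depth limits FLT4, SELP and LYL1, which had 1 to 74 counts per pig.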
